A study of Mus musculus with 12 samples.

Results

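The genes described here are 39 genes of fatty acid oxidation and other targets of PPARA. They were taken by name from the 55471 gene IDs of a count table of mouse liver RNA-seq, and all 39 were among the 13866 genes with enough counts to be tested. In the sets used here, called compartments below, 10 are peroxisomal, 15 mitochondrial and 5 of omega oxidation, and 9 are other PPARA targets. These 9 include genes with mitochondrial or peroxisomal products, such as Acot2 and Acot4. The livers came from C57BL/6 mice in 4 groups of 3 samples: a standard diet (SD), a diet that gives MASLD (metabolic dysfunction-associated steatotic liver disease), and that diet together with Aza-TdC, given at 0.1x or 1x of a relative dose. Aza-TdC is a modified nucleoside used to deplete DNMT1, which keeps up DNA methylation when cells divide, and the study concerns the role of DNMT1 in MASLD. The labels give no sex, age, absolute dose or diet composition, and no vehicle is named for the untreated MASLD group.

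PPARA is a nuclear receptor of hepatocytes that binds DNA as a pair with RXR and is switched on by fatty acids. Mitochondria oxidise most fatty acids after import by the carnitine shuttle, peroxisomes shorten very long and dicarboxylic chains, and the CYP4A enzymes of the endoplasmic reticulum start omega oxidation at the far end of the chain. Genes of all these routes are known PPARA targets in mouse liver, and fasting and fibrate drugs raise them.

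Sequences of 2 groups of close relatives are shown because the results below part their members: the thiolase genes Acaa1a and Acaa1b, of which the diet test called only Acaa1b, and the 4 acyl-CoA thioesterase genes Acot1 to Acot4, which are neighbours on chromosome 12. Each line holds the 250 bases before the start that RefSeq gives (GRCm38.p6, the assembly also called mm10), 5′ to 3′ on the gene's strand, and capitals mark CpG pairs, the sites that DNMT1 methylates. The Acaa1b window lies on the minus strand at chr9:119157094-119157343. The other windows lie on plus strands, at chr9:119341044-119341293 for Acaa1a, chr12:84009252-84009501 for Acot1, chr12:83987611-83987860 for Acot2, chr12:84051894-84052143 for Acot3 and chr12:84038129-84038378 for Acot4.
Acaa1a: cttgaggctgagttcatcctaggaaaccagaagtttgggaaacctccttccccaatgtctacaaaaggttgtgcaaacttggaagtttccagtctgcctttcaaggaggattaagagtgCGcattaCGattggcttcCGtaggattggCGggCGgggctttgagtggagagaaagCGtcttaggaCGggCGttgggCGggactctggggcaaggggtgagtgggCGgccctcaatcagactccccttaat
Acaa1b: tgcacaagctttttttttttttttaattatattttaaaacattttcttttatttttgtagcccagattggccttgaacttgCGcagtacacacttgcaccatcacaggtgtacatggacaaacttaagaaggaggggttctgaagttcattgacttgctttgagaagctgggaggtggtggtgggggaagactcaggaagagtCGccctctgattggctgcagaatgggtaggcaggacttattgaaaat
Acot1: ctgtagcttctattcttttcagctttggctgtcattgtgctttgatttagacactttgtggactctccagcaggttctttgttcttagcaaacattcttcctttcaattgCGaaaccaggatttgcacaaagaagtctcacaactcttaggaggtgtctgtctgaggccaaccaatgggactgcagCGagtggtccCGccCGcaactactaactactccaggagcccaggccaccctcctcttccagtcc
Acot2: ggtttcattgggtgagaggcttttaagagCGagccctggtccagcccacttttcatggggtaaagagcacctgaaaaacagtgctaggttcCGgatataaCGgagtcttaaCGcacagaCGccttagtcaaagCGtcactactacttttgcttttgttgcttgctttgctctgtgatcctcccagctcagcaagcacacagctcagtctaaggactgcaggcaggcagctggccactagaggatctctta
Acot3: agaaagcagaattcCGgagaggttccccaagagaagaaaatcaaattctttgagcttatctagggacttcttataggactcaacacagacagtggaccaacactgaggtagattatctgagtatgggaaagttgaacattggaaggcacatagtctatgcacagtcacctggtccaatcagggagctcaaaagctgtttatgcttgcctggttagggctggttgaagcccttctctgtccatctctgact
Acot4: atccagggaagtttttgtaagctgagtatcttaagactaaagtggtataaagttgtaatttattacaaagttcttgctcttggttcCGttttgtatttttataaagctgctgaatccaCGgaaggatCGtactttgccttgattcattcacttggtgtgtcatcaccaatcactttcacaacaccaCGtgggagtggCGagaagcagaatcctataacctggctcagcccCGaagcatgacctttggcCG
These windows hold 10 CpG in Acaa1a and 2 in Acaa1b. In the thioesterase cluster they hold 4 in Acot1, 6 in Acot2, 1 in Acot3 and 7 in Acot4. RefSeq windows of 300 bases (250 before and 50 after the start) were found for 30 of the 39 genes, with a median of 14.5 CpG (2 to 42) against 7 over all 32851 windows. The PPARA element AGGTCANAGGTCA, searched on both strands, was in 0 of these 30 genes and in 0.0481% of all 27025 genes with a window. The single repeat AGGTCA was in 6 of 30 (20%: Acadm, Acadvl, Acot3, Acot4, Cpt1a and Creb3l3) against 18.1% of all genes. The longer element was searched in 1 exact form, so elements with other letters were not counted. A relaxed form, with a free base within each repeat, was in 0 of 30 genes and in 0.451% of all genes. Both shares over all genes are so low that 0 matches would be likely in any set of 30 genes. These counts thus cannot show whether the 30 genes lack PPARA elements or differ from other genes. The window covers only this stretch, and methylation was not measured in these samples.

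On the MASLD diet 26 of the 39 genes rose and 0 fell by edgeR's quasi-likelihood test, at a Benjamini-Hochberg adjusted p under 0.05. Of all genes tested 15.6% rose and 13.9% fell. The median log2 fold change was 0.64 for the 39 genes and 0.03 for all genes, and 15 of the 39 rose by at least 2-fold, against 7.06% of all genes. The scaling of library sizes (TMM) tends to put the median of all genes near 0, so fold changes are relative to it. Its factors were 0.852 to 0.866 in SD and 1.075 to 1.151 in MASLD. The medians of the compartments differed, but differences between compartments were not tested, and the 39 genes were chosen with earlier results of these data known. All 5 omega oxidation genes rose (median log2 fold change 1.96), 8 of 10 peroxisomal genes (0.98), 6 of 9 other targets (1.32) and 7 of 15 mitochondrial genes (0.38). At least 2-fold rises came in 5 of 5, 5 of 10, 5 of 9 and 0 of 15 genes, in that order. Outside the 39 genes, the other peroxisomal genes tested had a median of 0.003 (5 of 19 rose and 3 fell). The other mitochondrial genes tested had a median of −0.073 (5 of 17 rose and 4 fell). Libraries differed in how counts depended on GC content and on transcript length. With this trend removed from each library, 25 of the 39 genes rose and 0 fell, and over all genes 1581 of 4444 calls were rises against 2164 of 4085 before. Of the 26 calls, 22 held under every other setting run. The exceptions were Abcd3, Acadm, Hadha and Acot4, described below.

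**Figure D1:**
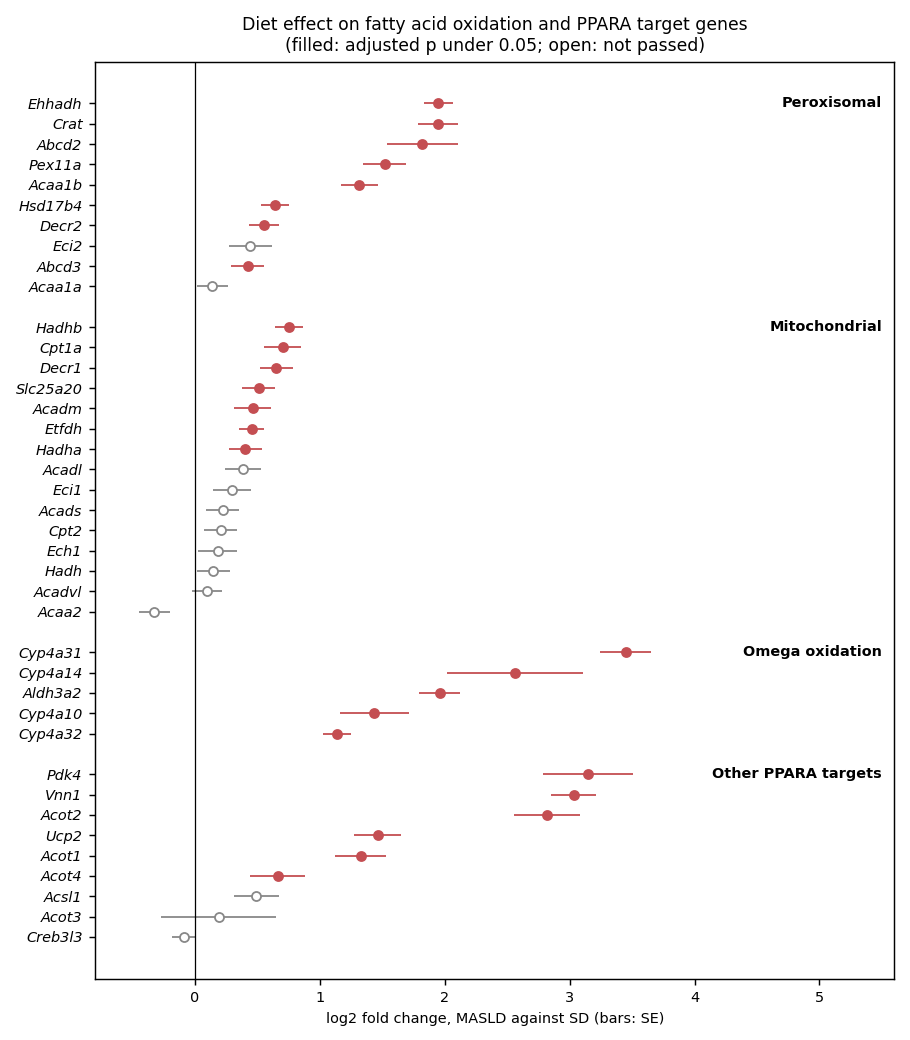
Log2 fold change of each of the 39 genes, MASLD against SD (x axis), with its standard error, by compartment. Filled points passed the test. Omega oxidation genes lie between 1.14 and 3.45, and mitochondrial genes between −0.33 and 0.75.

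Totals ran from 30213048 to 41852606 counts per library. Hepatocyte markers were present throughout and summed to 180000 to 189000 CPM (counts scaled to a common library size) in SD and 92800 to 113000 in MASLD, and 0 of 11 tested rose while 9 fell. Summed macrophage markers went from 107 to 170 CPM in SD to 231 to 335 in MASLD (10 of 12 rose), stellate markers from 149 to 171 to 270 to 404 (9 of 12), endothelial markers from 147 to 201 to 236 to 266 (6 of 12), and cholangiocyte markers from 29.8 to 41.4 to 65.6 to 185 (7 of 11). The adipocyte list summed to 3810 to 5860 CPM in SD and 1530 to 2050 in MASLD, with 2 of 6 tested up and 1 down. The sum thus does not follow the list as a whole and cannot be read as a level of adipocytes. Of its 12 genes, 4 had no count in SD (Plin1, Lep, Retn and Ucp1) and 3 had none in MASLD (Lep, Nnat and Ucp1). Plin1 and Retn thus had counts in MASLD and none in SD. In bulk tissue, fewer cells of a type and less RNA per cell cannot be told apart. The part of these shifts in the results was not tested.

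Of the 10 peroxisomal genes 8 rose on the MASLD diet, 5 of them by at least 2-fold. Ehhadh, which hydrates and dehydrogenates the chain, read 295, 297 and 327 CPM in SD and 1190, 1173 and 1185 in MASLD (log2 fold change 1.95 ± 0.11 SE, adjusted p = 5.56e-08). Crat, a carnitine acetyltransferase that exports acetyl groups, read 37.8, 48.7 and 53.0 in SD and 182, 167 and 190 in MASLD (1.95 ± 0.16, adjusted p = 1.19e-06). In both genes every MASLD sample lay above every SD sample, as in 25.1% of all genes. Pex11a, which drives peroxisome division, read 80.4, 108 and 103 CPM in SD and 314, 256 and 263 in MASLD (1.52 ± 0.17, adjusted p = 1.96e-05). Abcd2, an importer of very long acyl chains, had 5.42, 10.4 and 15.2 CPM in SD and 35.1, 33.0 and 41.9 in MASLD (1.82 ± 0.28, adjusted p = 0.000269). Neither gene's groups overlapped.

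The 2 peroxisomal 3-ketoacyl-CoA thiolase genes, which may share reads so that their split is uncertain, gave different readings. Acaa1b read 1130, 1030 and 1188 CPM in SD and 3001, 2457 and 2874 in MASLD (1.32 ± 0.15, adjusted p = 1.75e-05), with no overlap. Acaa1a read 188, 206 and 212 in SD and 239, 212 and 216 in MASLD (0.14 ± 0.13, adjusted p = 0.429). The lowest Acaa1a value in MASLD was within 1 CPM of the highest in SD. Per kb of transcript, Acaa1b stood at 661 CPM and Acaa1a at 55.02 in SD. With the trend removed, Acaa1a turned to −0.057 (adjusted p = 0.777) and Acaa1b stayed at 1.35. The difference between these genes' responses was not tested.

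The other peroxisomal genes moved by less. Hsd17b4, the multifunctional enzyme for branched chains, read 484, 475 and 478 CPM in SD and 768, 699 and 777 in MASLD (0.64 ± 0.11, adjusted p = 0.000713). Decr2, a reductase for unsaturated chains, rose by 0.55 ± 0.12 (adjusted p = 0.00347). Abcd3, an importer of acyl chains, rose by 0.42 ± 0.13 (adjusted p = 0.0290), but its call was lost on leaving out SD sample 4 or 5 or any MASLD sample (adjusted p from 0.0639 to 0.126), and also with the trend removed. Eci2, an isomerase of unsaturated chains, was at 0.44 ± 0.17 (adjusted p = 0.0641).

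The mitochondrial genes shifted little, and 0 of 15 reached a 2-fold change. This set leaves out Acot2 (2.82) and Ucp2 (1.46), which have mitochondrial products but are counted with the other targets. Each gene is counted in 1 compartment only, so these counts depend on the assignment, also on that of Crat (1.95), counted as peroxisomal. Hadhb, the thiolase subunit of the trifunctional protein, read 158, 164 and 163 CPM in SD and 273, 276 and 267 in MASLD (0.75 ± 0.11, adjusted p = 0.000211). Cpt1a, the carnitine palmitoyltransferase that sets the entry of long chains, read 427, 386 and 331 in SD and 593, 627 and 641 in MASLD (0.70 ± 0.15, adjusted p = 0.00282). Decr1, the mitochondrial dienoyl-CoA reductase, read 211, 235 and 243 in SD and 373, 354 and 356 in MASLD (0.65 ± 0.13, adjusted p = 0.00217). These genes were higher in every MASLD sample than in any SD sample.

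Along the route from import to the last step, some genes passed and others did not, and differences between genes were not tested. The carnitine carrier Slc25a20 read 122, 139 and 148 CPM in SD and 204, 187 and 189 in MASLD (0.51 ± 0.13, adjusted p = 0.0099), while Cpt2, the inner palmitoyltransferase, was at 0.20 ± 0.13 (adjusted p = 0.256). Of the acyl-CoA dehydrogenases, which start each round, the medium-chain Acadm read 309, 381 and 403 in SD and 521, 468 and 515 in MASLD (0.46 ± 0.14, adjusted p = 0.0271). The long-chain Acadl (0.38, adjusted p = 0.0559), very-long-chain Acadvl (0.10, adjusted p = 0.576) and short-chain Acads (0.22, adjusted p = 0.227) did not pass. Etfdh, which passes their electrons to the respiratory chain, read 234, 243 and 248 in SD and 342, 307 and 344 in MASLD (0.45 ± 0.10, adjusted p = 0.00332), with no overlap.

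Of the 7 mitochondrial calls, those of Acadm and Hadha did not hold under every setting. Leaving out SD sample 3 or 4, or MASLD sample 3 or 5, ended the call of Acadm (adjusted p from 0.0525 to 0.1). Hadha, the other trifunctional subunit, was at 0.40 ± 0.13 (adjusted p = 0.0337) and did not pass without any 1 of the 6 libraries compared (adjusted p from 0.0586 to 0.114), nor with the trend removed. Hadha and Hadhb lie head to head on chromosome 5 (GENCODE starts at 30155162 on the minus strand and 30155248 on the plus strand). The hydroxyacyl-CoA dehydrogenase gene Hadh (0.15) and the isomerases Eci1 (0.30) and Ech1 (0.18) did not pass, and with the trend removed Hadh turned to −0.048 (adjusted p = 0.821) and Eci1 and Acadl passed.

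Acaa2, the mitochondrial thiolase, was the 1 mitochondrial gene with a negative value. It read 1247, 1428 and 1499 CPM in SD and 1147, 1010 and 1171 in MASLD (−0.33 ± 0.13, adjusted p = 0.0633). Every MASLD sample lay below every SD sample, as did 22.8% of all genes tested. The test passed without SD sample 3 (−0.40, adjusted p = 0.0392) and with DESeq2 (−0.35, adjusted p = 0.0158).

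**Figure D2:**
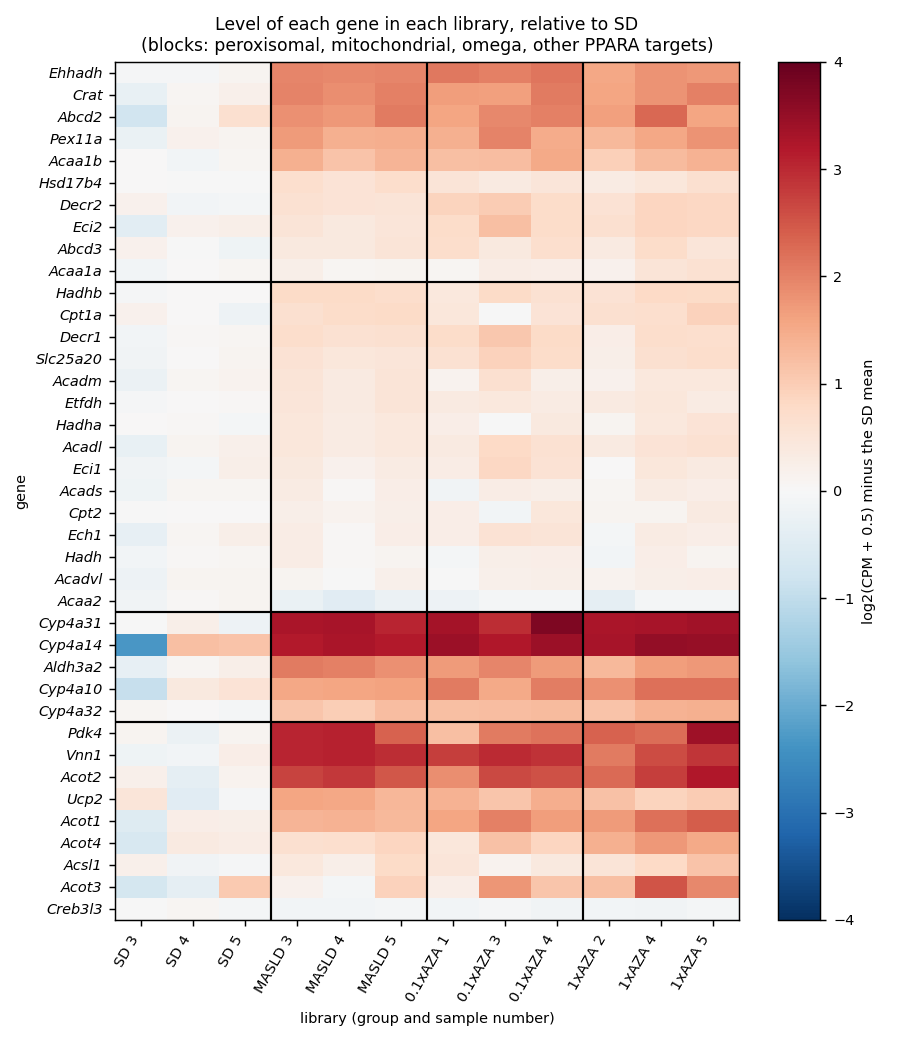
Level of each gene (rows) in each library (columns) as log2(CPM + 0.5) minus the mean of the SD libraries. Blocks from top to bottom are peroxisomal, mitochondrial, omega oxidation and other PPARA targets. SD sample 3 is low for Cyp4a14, at 38.6 CPM, where SD samples 4 and 5 read 448 and 427.

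All 5 omega oxidation genes of the set rose. They summed to 932 ± 412 CPM in SD and 3918 ± 129 in MASLD (mean ± standard deviation, n = 3). The Cyp4a genes encode fatty acid omega-hydroxylases, sit together on chromosome 4 and may share reads, so that their split is uncertain. Cyp4a14 read 38.6, 448 and 427 CPM in SD and 1759, 1866 and 1764 in MASLD (2.56 ± 0.54, adjusted p = 0.00282). Cyp4a10 read 125, 310 and 352 in SD and 691, 711 and 726 in MASLD (1.44 ± 0.28, adjusted p = 0.0015). SD sample 3 was the lowest library for both, and without it Cyp4a14 stood at 2.04 ± 0.14 (adjusted p = 5.24e-07) and Cyp4a10 at 1.10 ± 0.18 (adjusted p = 0.000461). That same library read 382 CPM of Cyp4a12a, a further omega-hydroxylase gene of the cluster, where the remaining SD samples read 77.2 and 64.4 and those of MASLD 423 to 433.

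The low-expressed cluster genes did not share that spread. Cyp4a31 read 2.18, 2.69 and 1.83 CPM in SD and 25.4, 25.9 and 21.9 in MASLD (3.45 ± 0.20, adjusted p = 5.56e-08). Cyp4a32 read 15.3, 14.7 and 13.7 in SD and 32.1, 29.2 and 34.8 in MASLD (1.14 ± 0.11, adjusted p = 5.05e-06). Aldh3a2, the fatty aldehyde dehydrogenase of the later step, read 276, 366 and 404 in SD and 1452, 1389 and 1227 in MASLD (1.96 ± 0.17, adjusted p = 1.47e-06). No group overlapped for these genes.

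Of 11 other omega oxidation genes tested outside the set, 2 rose and 4 fell on the diet, 5 did not pass, and the median log2 fold change was 0.37. Over all genes tested 15.6% rose and 13.9% fell. Cyp4f14, a hydroxylase of leukotrienes and fatty acids, read 343, 356 and 323 CPM in SD and 104, 124 and 120 in MASLD (−1.55 ± 0.13, adjusted p = 1.37e-06), the opposite direction to each Cyp4a gene of the set. Cyp4f15 (−0.71, adjusted p = 0.000578), Cyp4f13 (−0.72, adjusted p = 0.000745) and Cyp4v3 (−0.62, adjusted p = 0.0059) also fell. The 2 that rose were low, with Cyp4f16 at 1.64 CPM and Cyp4b1 at 10.9 CPM in MASLD, and neither passed without SD sample 4 or MASLD sample 3. SD sample 3 and MASLD sample 4 also decided Cyp4f16 (adjusted p from 0.0654 to 0.0902), and MASLD sample 5 Cyp4b1 (adjusted p from 0.0604 to 0.107).

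**Figure D3:**
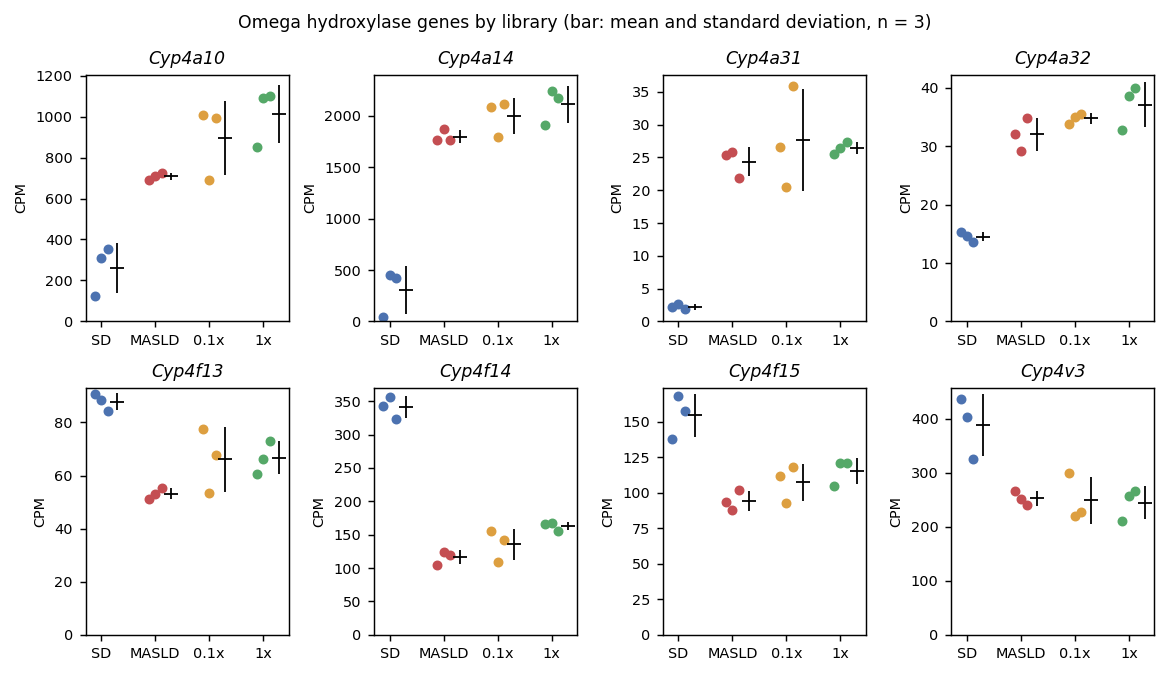
CPM (y axis, from 0) of 4 Cyp4a genes (top) and the 4 other omega enzymes that fell on the diet (bottom) in each library, by group. Cyp4a14 is at or above 1759 CPM in every MASLD-diet library, and Cyp4f14 is at or below 167 CPM in all of them against 323 to 356 in SD.

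Among the other PPARA targets, 3 had log2 fold changes of 2.82 to 3.15. Vnn1, a pantetheinase, read 33.4, 34.8 and 45.2 CPM in SD and 316, 319 and 293 in MASLD (3.03 ± 0.18, adjusted p = 6.36e-08). Pdk4, which blocks pyruvate dehydrogenase and so spares glucose, read 2.12, 1.58 and 2.15 in SD and 19.5, 20.3 and 12.1 in MASLD (3.15 ± 0.36, adjusted p = 1.92e-05). Acot2, the mitochondrial thioesterase of the cluster, read 3.99, 2.501 and 3.78 in SD and 24.7, 26.8 and 21.0 in MASLD (2.82 ± 0.27, adjusted p = 3.8e-06). None of these groups overlapped.

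The cluster's other genes had smaller log2 fold changes, with reads that near-identical copies may share. The cytosolic Acot1 read 23.1, 39.9 and 38.9 CPM in SD and 85.9, 87.0 and 82.2 in MASLD (1.33 ± 0.21, adjusted p = 0.000278). The peroxisomal Acot4 read 27.1, 54.99 and 52.7 in SD and 67.1, 68.4 and 77.7 in MASLD (0.66 ± 0.22, adjusted p = 0.0372). The call of Acot4 was lost on leaving out SD sample 3 or any MASLD sample (adjusted p from 0.0670 to 0.109), and with the trend removed (0.35, adjusted p = 0.31). Acot3, also peroxisomal, read 14.5, 18.6 and 50.3 in SD and 26.8, 22.5 and 46.1 in MASLD (0.19 ± 0.46, adjusted p = 0.789), with overlap, and its sign turned without SD sample 3 (−0.12) or 4 (−0.03) or MASLD sample 5 (−0.18).

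Ucp2, a mitochondrial carrier, read 29.0, 15.2 and 20.2 CPM in SD and 63.3, 61.5 and 52.4 in MASLD (1.46 ± 0.19, adjusted p = 5.03e-05). Acsl1, which activates long chains to acyl-CoA, was at 0.49 ± 0.18 (adjusted p = 0.0501). It passed with DESeq2, with no filter, with a mean of at least 1 CPM and with only the groups compared (adjusted p from 0.00928 to 0.0407). Leaving out SD sample 3 or MASLD sample 4 also brought it past the threshold (adjusted p from 0.0365 to 0.0372), and with the trend removed it was at 0.21 (adjusted p = 0.396). Creb3l3, a liver transcription factor that acts with PPARA, stood at 299, 320 and 290 CPM in SD and 283, 284 and 287 in MASLD (−0.09 ± 0.09, adjusted p = 0.499).

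Ppara itself rose on the diet from 67.8 ± 12.3 to 119 ± 14.5 CPM (0.82 ± 0.21, adjusted p = 0.00857). Of 15 regulators of PPARA activity, Ppara included, 2 rose and 3 fell, against 1 and 4 with DESeq2 and 1 and 5 with the trend removed. Beside this list and those that follow, the shares over all genes tested were 15.6% up and 13.9% down. Its partner Rxra stood at 404 CPM in both groups and the coactivator gene Ppargc1a at 4.40 and 3.76. In the rest of the pathway, the mitochondrial list gave 5 up and 4 down of 17 tested. Slc22a5, the carnitine importer, rose by 1.22 ± 0.16 (adjusted p = 6.82e-05) and Acadsb, a branched-chain dehydrogenase, fell by 0.77 ± 0.12 (adjusted p = 0.000289). Of 19 other peroxisomal genes 5 rose and 3 fell, among them Phyh, which starts the alpha-oxidation of phytanic acid (−0.77 ± 0.13, adjusted p = 0.000582), and with the trend removed 5 rose and 5 fell. Of 15 peroxins, the proteins that build peroxisomes, 3 rose and 0 fell, against 1 fall with DESeq2 and 3 with the trend removed.

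Ketone body genes gave 3 up and 1 down of 7. Bdh1, which makes hydroxybutyrate, rose by 0.68 ± 0.13 (adjusted p = 0.00148). A further list of PPARA targets, mostly of lipid storage and transport, gave 15 up and 0 down of 22, against 15 and 1 with DESeq2 and 14 and 1 with the trend removed. Fgf21, a fasting hormone, rose by 3.56 ± 0.32 (adjusted p = 2.11e-06), from 1.23 to 14.7 CPM, while Angptl4, which inhibits lipoprotein lipase, was at −0.28 ± 0.12 (adjusted p = 0.0874). It passed without SD sample 3 (adjusted p = 0.0349) and with the trend removed (−0.43, adjusted p = 0.00983).

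Under Aza-TdC the compartments stayed near their levels on the MASLD diet alone. The mean log2 CPM of the peroxisomal genes lay 1.09 ± 0.07 above the SD mean in MASLD, 1.18 ± 0.07 at 0.1x and 1.11 ± 0.17 at 1x (mean ± standard deviation, n = 3). The mitochondrial genes lay 0.35 ± 0.07, 0.37 ± 0.11 and 0.34 ± 0.15 above it, and the omega oxidation genes 2.26 ± 0.03, 2.37 ± 0.13 and 2.39 ± 0.15. The other targets lay 1.48 ± 0.02, 1.41 ± 0.24 and 1.74 ± 0.27 above it. In each compartment the 3 groups on the MASLD diet overlapped.

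**Figure D4:**
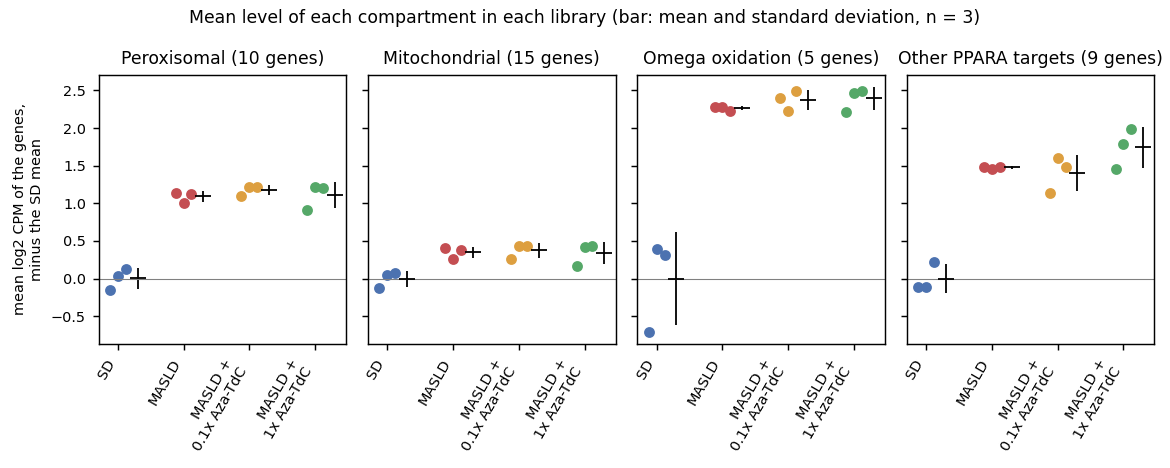
Mean log2 CPM of each compartment's genes minus the SD mean (y axis) in each library, by group, with the mean and standard deviation of 3 samples. Groups on the MASLD diet lie near 1.1 for peroxisomal and 0.35 for mitochondrial genes, and SD sample 3 is lowest for omega oxidation, at −0.71.

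Against SD, 26 of the 39 genes were higher at 0.1x and 29 at 1x, and 0 were lower at either dose. Of all genes tested 9.85% and 9.91% were higher and 10.9% and 9.84% lower, in that order. By compartment the counts at 0.1x and 1x were 9 and 10 of 10 peroxisomal, 6 and 6 of 15 mitochondrial, 5 and 5 of 5 omega oxidation and 6 and 8 of 9 other target genes. These comparisons share the SD samples with the diet comparison.

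Against untreated MASLD, 0 of the 39 genes rose and 1 fell at 0.1x, where 6.08% of all genes rose and 7.09% fell. The 1 gene was Pdk4, at 5.05, 9.89 and 10.4 CPM against 19.5, 20.3 and 12.1 in MASLD (−1.03 ± 0.32, adjusted p = 0.0442). The groups did not overlap, as in 18.7% of all genes in this direction, but the nearest samples, 10.4 and 12.1 CPM, lay close. Its call was lost on leaving out any MASLD sample, or 0.1x sample 1 or 3 (adjusted p from 0.0535 to 0.144), and also with the trend removed (−0.98, adjusted p = 0.0928). The 0.1x sample 3 showed that trend most, at 22.3% of the variance of its deviation from the mean, and 1x sample 2 followed with 18.7%. At 1x, Pdk4 read 12.1, 10.99 and 25.2 CPM. With the trend removed 0 of the 39 genes passed at 0.1x, and over all genes 382 of 542 calls were rises against 843 of 1826. The mitochondrial genes lay between −0.36 (Cpt1a, adjusted p = 0.116) and 0.28 (Eci1, adjusted p = 0.219) at 0.1x.

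At 1x 0 of the 39 genes passed against untreated MASLD, where 3.11% of all genes did (1.49% higher and 1.62% lower). At an unadjusted p under 0.05 there were 8, and DESeq2 called 2. With the trend removed 2 rose, and over all genes 386 of 654 calls were rises against 207 of 431. All 15 mitochondrial genes lay between −0.13 and 0.17 in log2 fold change, with standard errors of 0.10 to 0.16. The 3 largest positive values were thioesterases of the chromosome 12 cluster. Acot1 read 108, 153 and 178 CPM at 1x against 85.9, 87.0 and 82.2 in MASLD (0.78 ± 0.20, adjusted p = 0.0501). Acot4 read 116, 144 and 125 against 67.1, 68.4 and 77.7 (0.85 ± 0.22, adjusted p = 0.0523). Acot3 read 55.8, 139 and 91.7 against 26.8, 22.5 and 46.1 (1.59 ± 0.46, adjusted p = 0.0816).

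All 1x samples lay above all MASLD samples for these 3 genes, as they did for 13.5% of all genes tested. Acot1 passed without 1x sample 2 (0.96, adjusted p = 0.0343). Acot1 and Acot4 were the 2 genes that DESeq2 called (adjusted p = 0.0064 and 0.00633), and both passed with the trend removed (adjusted p = 0.0302 and 0.0472). Acot2, the fourth gene of the cluster, read 18.3, 25.6 and 35.4 CPM at 1x against 24.7, 26.8 and 21.0 in MASLD (0.13 ± 0.24, adjusted p = 0.864). Vnn1 (−0.48 ± 0.17, adjusted p = 0.147) and Ucp2 (−0.46 ± 0.18, adjusted p = 0.2) did not pass, though every 1x sample read below every MASLD sample, as in 14.3% of all genes.

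Between the doses 1 of the 39 genes was higher and 1 lower at 1x, where 7.13% of all genes were higher and 5.86% lower. Ehhadh read 1314, 1250 and 1339 CPM at 0.1x and 891, 1073 and 1011 at 1x (−0.39 ± 0.11, adjusted p = 0.0335). Acot4 read 59.4, 98.1 and 77.5 at 0.1x and 116, 144 and 125 at 1x (0.71 ± 0.22, adjusted p = 0.0485). The doses did not overlap for either gene, as in 14.5% of all genes for lower and 16.3% for higher values. Ehhadh lost its call on leaving out 0.1x sample 1 or 4, or 1x sample 2 or 5 (adjusted p from 0.0709 to 0.138), and Acot4 on leaving out 0.1x sample 1 or 4, or any 1x sample (adjusted p from 0.0958 to 0.148). With the trend removed both were lost (−0.37, adjusted p = 0.0659, and 0.46, adjusted p = 0.307).

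**Figure D5:**
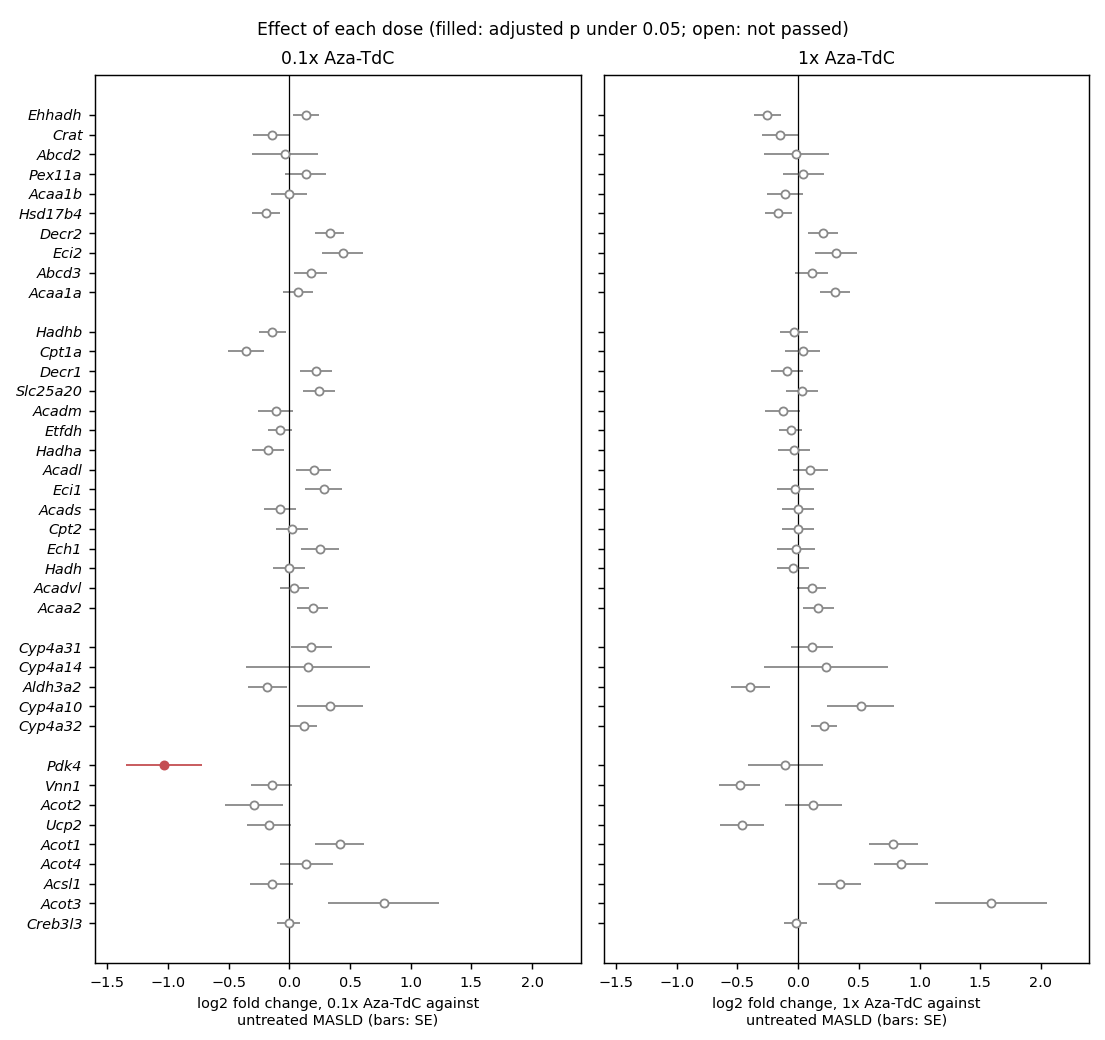
Log2 fold change of each of the 39 genes against untreated MASLD (x axis) at 0.1x (left) and 1x (right), with its standard error. The 1 filled point is Pdk4 at 0.1x (−1.03), and Acot3 has the highest value at 1x (1.59) without passing.

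Ppara, the gene of the receptor, fell at 0.1x. It read 43.0, 79.9 and 52.6 CPM at 0.1x, 109, 114 and 136 in MASLD and 150, 108 and 110 at 1x. The log2 fold change at 0.1x against MASLD was −1.03 ± 0.21 (adjusted p = 0.0116; −0.89, adjusted p = 0.0353 with the trend removed), with no overlap. Ppara was higher at 1x than at 0.1x (1.06 ± 0.21, adjusted p = 0.00879), a call lost without 1x sample 2 (adjusted p = 0.0578). Of the 15 regulators 0 rose and 5 fell at 0.1x, where 6.08% of all genes rose and 7.09% fell. With the trend removed 0 rose and 1 fell, so the count depended on this setting. The corepressor gene Ncor1 fell by 0.56 ± 0.12 (adjusted p = 0.0145) and was at −0.10 (adjusted p = 0.625) with the trend removed. At 1x 0 of 15 regulators passed against MASLD, where 3.11% of all genes did.

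At 1x 2 of the 22 further PPARA targets and 1 of 19 other peroxisomal genes fell against MASLD, where 1.62% of all genes did. Crot, a peroxisomal carnitine octanoyltransferase, read 624, 605 and 479 CPM in MASLD, 657, 576 and 478 at 0.1x and 320, 351 and 295 at 1x (1x against MASLD −0.82 ± 0.15, adjusted p = 0.00978). Plin2, a lipid droplet coat protein, read 1100, 1140 and 1200 in MASLD and 556, 671 and 715 at 1x (−0.82 ± 0.13, adjusted p = 0.00473). Gpd1, which makes glycerol phosphate, read 861, 745 and 794 in MASLD and 479, 530 and 534 at 1x (−0.64 ± 0.11, adjusted p = 0.00768). No 1x sample overlapped MASLD for these genes, and with the trend removed the values were −0.80, −0.81 and −0.59 and all passed. Leaving out MASLD sample 3 or 4 ended the call of Crot (adjusted p from 0.0554 to 0.0626), and leaving out MASLD sample 3 that of Gpd1 (adjusted p = 0.06). At 1x the summed hepatocyte markers were at 111000 to 129000 CPM against 92800 to 113000 in MASLD, and 2 of 11 rose. Stellate markers summed to 206 to 249 against 270 to 404 (1 of 12 fell) and cholangiocyte markers to 36.5 to 45.9 against 65.6 to 185 (2 of 11 fell), both with no overlap. Macrophage markers summed to 117 to 235 against 231 to 335 (1 of 12 rose and 3 fell), endothelial markers to 238 to 294 against 236 to 266 (0 of 12 passed) and the adipocyte list to 1300 to 2420 against 1530 to 2050 (1 of 6 fell). The part of these shifts in the values at 1x was not tested.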

How the data were processed

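Liver RNA of 12 samples (3 per group) was extracted with a column kit and made into stranded libraries of polyadenylated RNA, per the labels' protocols. Reads were aligned with STAR 2.7.3a to mm10, per the submitters' processing notes. The counting tool, its strand setting and annotation are, like its version, not given in the sources used here, so overlapping genes and close copies are uncertain. The authors deposited raw counts per gene, with 55471 IDs and 0 columns outside the samples. Symbols came from GENCODE vM21 and matched 55230 IDs, and the other 241 held 0.00328% of the counts. Of the symbols listed for the pathway and markers, Mmut and Tf were not matched and are not analysed here. In 1 case the title gave sample 5 where the library name gave 8, so the title's number is used.

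From the deposited counts, CPM, fold changes and p-values were then computed. In edgeR 4.0.16 (R 4.3.3), filterByExpr kept 13866 of 22984 genes that had a count, TMM factors set the library sizes, and 1 quasi-likelihood fit of all 12 libraries had 1 coefficient per group and 8 residual degrees of freedom. Tests were two-sided F tests, adjusted by Benjamini-Hochberg over all genes tested, with a threshold of 0.05. Standard errors (SE) were taken as the size of the log2 fold change over the root of its F. The script was tested on simulated data. Other settings were DESeq2 1.42.0, RLE factors, testing all genes with a count, testing those with a mean of at least 1 CPM, only the groups compared, a replicate block, leaving out each library, and removal of a smooth trend with transcript length and GC content, library by library (mgcv 1.9.3). Depth limits precision mostly for genes of a few CPM.

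Whether a group's samples are separate animals is not in the labels. The p-values thus rest on differences among these samples, part of which may be technical, although every pair of replicates differed beyond sampling noise. The 39 genes and all lists were chosen with earlier results of these data known. All 39 are named. Values per sample are given for up to 6 genes per compartment with the smallest adjusted p on the diet, for genes that passed between doses or against MASLD, and for near-identical pairs. From other lists up to 2 genes per direction were eligible, with 6 named whatever their result and some genes not reported here, and Cyp4f13, Cyp4v3, Cyp4a12a and the per-sample values of Acaa2 and Creb3l3 were chosen after their values were seen. The dose comparisons share the MASLD samples.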

Additional observations from a re-analysis of the deposited data

Results flagged for a closer look

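Several results differed between the doses, by the test of 1x against 0.1x, which is the difference between the effects of the doses against the shared MASLD samples. Of all genes tested 7.13% were higher and 5.86% lower at 1x. The counts higher and lower were 6 and 0 of 15 regulators, 2 and 3 of 17 mitochondrial and 0 and 1 of 19 other peroxisomal genes. They were 2 and 0 of 15 peroxins, 1 and 4 of 22 further targets, and 0 and 0 of 7 ketone body and 11 other omega oxidation genes. Not all of these are named. With the GC and length trend removed the counts were 3 and 0 of the regulators, 0 and 1 of the mitochondrial and 0 and 1 of the other peroxisomal genes. They were 0 and 0 of the peroxins and 1 and 1 of the further targets. Over all genes, leaving out 1x sample 2 gave 210 calls between the doses against 1802, so the counts and shares depended much on this library. Each value is the log2 fold change at 1x minus that at 0.1x. Among the 39 genes it was −0.39 for Ehhadh and 0.71 for Acot4. Among regulators it was 1.06 for Ppara and 0.69 for Ncor1. In the mitochondrial list it was −0.61 for Mcee, an epimerase of the propionate route, −1.15 for Etfb, an electron carrier subunit, 0.96 for Acacb, which makes the malonyl-CoA that inhibits CPT1, and 0.63 for Acad10. In the peroxisomal lists it was −0.82 for Crot and 0.70 for Pex26. Among further PPARA targets it was −0.78 for Fabp1, a fatty acid binding protein, 0.66 for Acsl4, −0.60 for Plin2 and −0.66 for Tfpi2. Leaving out 1x sample 2 ended the calls of Acacb, Acsl4, Mcee, Plin2, Ppara and Tfpi2 (adjusted p from 0.0578 to 0.0873). That of Acad10 was lost without 1x sample 2 or 0.1x sample 1 (adjusted p from 0.0564 to 0.0725), and that of Fabp1 without 1x sample 2 or 5 (adjusted p from 0.0506 to 0.0804). After removal of the dependence of counts on GC content and length, Ppara, Etfb, Crot, Acsl4 and Plin2 passed (adjusted p from 0.0108 to 0.0443), and Ehhadh, Acot4, Ncor1, Mcee, Acacb, Acad10, Pex26 and Tfpi2 did not (adjusted p from 0.0659 to 0.307). Nor did Fabp1, at −0.20 (adjusted p = 0.452).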

How the results depend on the processing

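In the 3 comparisons with SD, the number of genes of the 39 that passed stayed within 1.5 times under every setting run: 26 on the diet (24 to 29), 26 at 0.1x (24 to 27) and 29 at 1x (27 to 30). Without 1 library each, they ran from 22 to 25, 25 to 28 and 25 to 30. At 0.1x against MASLD 1 gene passed, against 2 with DESeq2, 3 with no filter, 0 with the GC and length trend removed, and 0 to 1 without 1 library. At 1x against MASLD 0 passed, against 1 with RLE factors, 2 with DESeq2, 6 with no filter, 5 with only the groups compared, 2 with the trend removed and 0 to 1 without 1 library. Between the doses 2 passed, against 1 with RLE factors, 4 with DESeq2, 7 with no filter, 1 with a mean of 1 CPM, 1 with only the groups compared, 0 with the trend removed and 0 to 2 without 1 library. With no filter the estimates of spread themselves changed. At 1x against MASLD the SE of Acot3 was 0.154 against 0.464 in the main fit, and that of Acot4 0.141 against 0.222. Between the doses that of Ehhadh was larger, at 0.150 against 0.111. The counts with no filter thus rest partly on these estimates. The cause of the differences between settings was not tested. Over all genes, trend removal gave 4444, 542, 654 and 576 calls against 4085, 1826, 431 and 1802 (diet, 0.1x, 1x, between doses), and the median of all genes on the diet was −0.10 against 0.03.

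Signs that turned were those of Acaa1a (−0.057) and Hadh (−0.048) on the diet with the trend removed, of Acot3 without 1 library (−0.18 to 0.937), and of Rxra, which was near 0 (0.006 with no filter, 0.022 with a mean of 1 CPM, 0.001 with the replicate block, −0.106 to 0.075 without 1 library). Same-numbered samples showed no strong shared deviation from their group means (correlations from −0.215 to 0.0757). Whether the numbers mark shared animals or days is not in the labels, and these correlations cannot decide it. With the replicate block 24 genes passed on the diet and 0 against MASLD at either dose or from dose to dose, and over all genes 3287, 33, 53 and 0. Against SD, 24 passed at 0.1x and 27 at 1x. No other library shares the number of 0.1x sample 1 or of 1x sample 2. The block fits these libraries fully, so they add nothing to its comparisons, and fewer calls for the doses follow partly from this. The block took 1x sample 5 by its title, though its library name gave 8. Depth was not the limit for most of these genes, but Pdk4, Acot2 and Cyp4a31 stood at 1.58 to 3.99 CPM in SD.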

Other observations

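Cidec, which fuses lipid droplets, read 2.96 ± 1.35 CPM on the standard diet and 235 ± 14.0 on the MASLD diet, which compares with 145 ± 28.3 under 0.1x and 129 ± 47.6 under 1x (mean ± standard deviation, n = 3), and did not pass against MASLD at either dose (adjusted p = 0.0810 and 0.0828). Fabp1 rose at 0.1x to 12300 ± 1910 CPM from 7410 ± 402 in MASLD (log2 fold change 0.73 ± 0.19, adjusted p = 0.0245) and stood at 7130 ± 1910 at 1x. After removal of the dependence of counts on GC content and length, the 0.1x value of Fabp1 was 0.14 (adjusted p = 0.626), and leaving out any MASLD sample or 0.1x sample 3 also ended the call (adjusted p from 0.0606 to 0.0827).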
